A study of Mus musculus with 6 samples.

Results

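Forkhead, SOX and ZIC proteins are 3 families of DNA-binding transcription factors. This account follows their genes in ribosome-bound mRNA from a pulldown aimed at adult mouse astrocytes. The members were taken by symbol: every gene of the files named Fox with a letter from a to s and a number, Sox with a number, or Zic with a number from 1 to 5. This gave 70 of 23955 genes, of which 68 are described here: 45 forkhead, 19 SOX and 4 ZIC genes. Of the 68, 32 had enough reads to be tested between the regions, namely 17 forkhead, 12 SOX and 3 ZIC genes. Member counts, sums and shares below leave out the genes not described. Family sums use every described member, while counts and percentages of members called are over the 32 tested.

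There were 3 libraries from the diencephalon, dissected without the tissue at the third ventricle. The other 3 were from cortical grey matter, with white matter and meninges taken off. Each library held the pooled tissue of 3 C57BL/6 mice, 3 months old and of both sexes. The mice carried the Cre allele Slc1a3tm1(cre/ERT2)Mgoe together with the tagged ribosome allele of B6N.129-Rpl22 tm1.1Psam/J and the reporter transgene Tg(CAG-cat,-EGFP)1Rbns/KrnzJ, of FVB.B6 origin. Every mouse of both regions had the genotype Slc1a3 +/- GFP+ Rpl22HA fl/fl and received tamoxifen in corn oil, by gavage, 3 times at intervals of 48 h from the age of 9 weeks. Tamoxifen activates a Cre recombinase made from the locus of the astrocyte glutamate transporter Slc1a3. Cre then switches the ribosomal protein Rpl22 to a form with a haemagglutinin tag, by which ribosomes and their mRNA are pulled down. Libraries of the unpurified tissue were not analysed here, so the share of RNA that came from cells without the tag was not measured.

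Forkhead proteins bind DNA through a winged helix, SOX proteins bend DNA through an HMG box, and ZIC proteins bind through zinc fingers related to those of the GLI factors of Hedgehog signalling. In the embryo, members of all 3 families divide the neural tube into regions: FOXB1 marks the diencephalon with the mammillary region, SOX1 and SOX2 the neural plate, and ZIC genes the dorsal midline. In the adult brain, SOX2 and SOX9 are nuclear markers of astrocytes, SOX10 marks the oligodendrocyte lineage, and FOXO proteins act in the nucleus when insulin signalling is low.

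Library totals were 1733145 to 2334237 expected counts, and levels are given as CPM, counts scaled to library size. A member without counts may have been as high as 1.31 to 1.86 CPM, depending on the library, which is what 3 counts are worth. Cortical grey matter replicate 3 stood apart: its counts differed from those of the other cortical libraries by 6.81 and 5.91 in chi-square over degrees of freedom, and these differed from each other by 2.59. Slc1a3, whose locus drives Cre, had 720.5, 739 and 783 CPM in diencephalon, against 1140.5, 1259 and 743 CPM in cortical grey matter. Rpl22 had 26.7, 21.1 and 20.9 CPM in diencephalon, against 22.7, 30.3 and 28.6 CPM in cortical grey matter. The summed CPM of 12 astrocyte markers was 19138 to 22288 in diencephalon, against 28068 to 35092 in cortical grey matter. In such bulk libraries, fewer cells of a type and less RNA per cell cannot be told apart. No label says that libraries of the same number share mice, and p-values measure the spread between these pools.

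Members of the 3 families differed between the regions in both directions, with Zic1 and Zic4 higher in diencephalon. Of the 32 tested members, 17 passed the threshold of an adjusted p under 0.05 (edgeR quasi-likelihood test, Benjamini-Hochberg over the 10568 genes tested), or 53.1%, beside 29.6% of all genes tested. In diencephalon 9 members were higher and 8 lower, where 14.9% of all genes were higher and 14.8% lower. Among forkhead genes, 5 were higher and 5 lower; among SOX genes, 2 were higher and 3 lower; and among ZIC genes, 2 were higher and none lower, while Zic2 did not pass. The median log2 difference of the tested members, diencephalon minus cortical grey matter, was -0.0074 for forkhead, -0.28 for SOX and 1.47 for ZIC genes, beside 0.0096 for all genes. A difference beyond 1.5-fold (edgeR glmTreat) was shown for 7 members, or 21.9%, beside 9.99% of all genes: Zic1, Zic4, Foxb1, Foxj1 and Foxp2 higher, and Foxc1 and Sox21 lower. The regions' libraries were without overlap for 21 of the 32 members, or 65.6%, beside 42.6% of all genes. Without cortical grey matter replicate 3, the counts higher and lower were 5 and 4 for forkhead, 2 and 3 for SOX and 2 and 0 for ZIC genes. On log2(TPM + 1), a per-length scale on which the median difference of all genes was 0.22, limma gave 5 and 4 for forkhead, 3 and 1 for SOX and 2 and 0 for ZIC genes, beside 2118 higher and 958 lower genes of 14296. Foxb1, Foxr2 and Zic4 reached the count filter in diencephalic libraries only, and so could only be called higher. All these counts are over members that passed the filter, not over the 68.

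**Figure D1:**
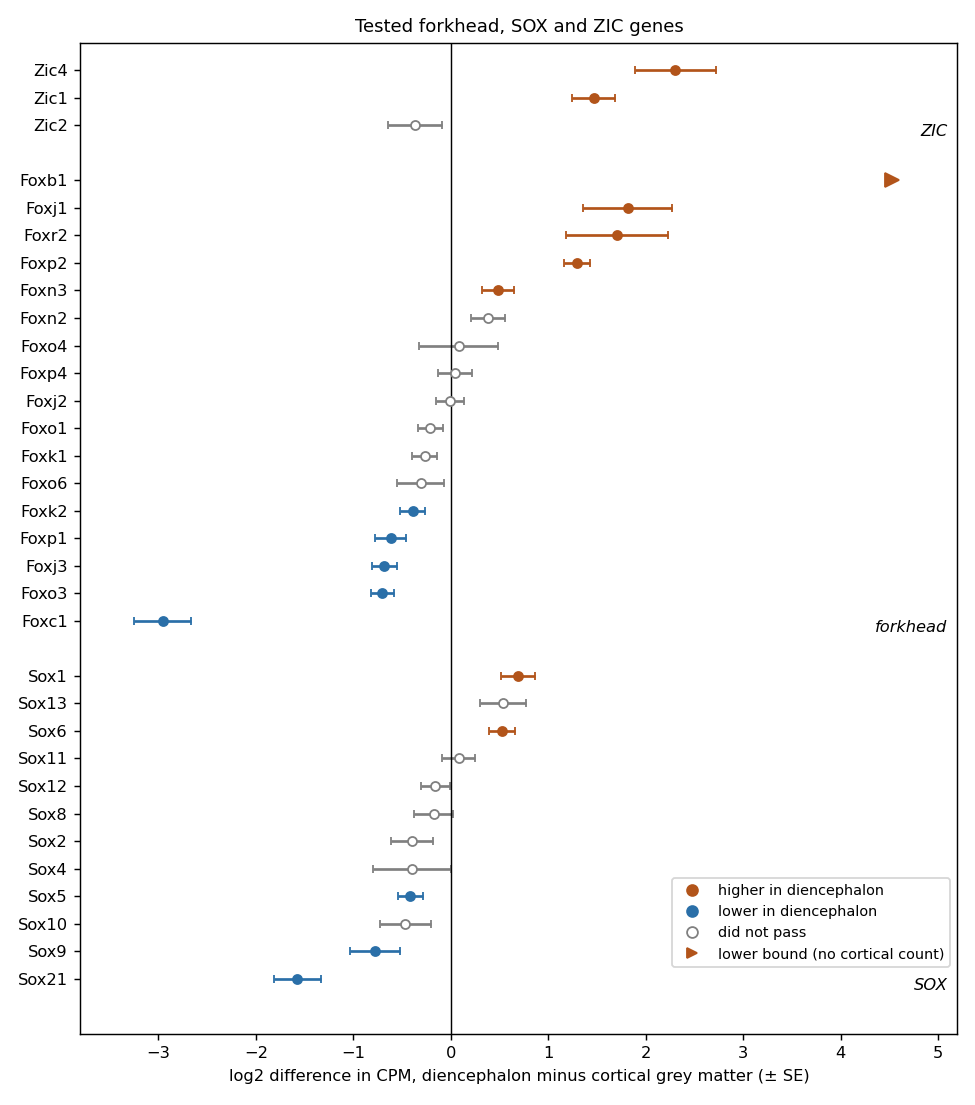
Log2 difference in CPM, diencephalon minus cortical grey matter, with its standard error, for the 32 tested members by family. Filled points passed the edgeR threshold, open points did not, and the arrowhead marks the lower bound for Foxb1, which had no cortical count. Zic4 and Zic1 lie at 2.31 and 1.47, and Foxc1 and Sox21 at -2.95 and -1.57.

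Zic1 and Zic4 were higher in diencephalon, and Zic2 did not pass the test. In TPM, the deposited measure scaled to gene length, the 4 ZIC genes described summed to 103, 117 and 108 TPM in diencephalon, against 43.2, 52.2 and 37.6 TPM in cortical grey matter. Zic1 and Zic4 lie head to head on mouse chromosome 9, with starts 3204 bases apart, so their promoters are shown together. The windows hold 250 bases before and 50 after the RefSeq start (build GRCm38.p6), Zic1 at chr9:91365719-91366018 on the minus strand and Zic4 at chr9:91368722-91369021 on the plus strand. CG dinucleotides are in capitals, 31 in the Zic1 window and 8 in that of Zic4, at a GC content of 65.3% and 46.0%.
Zic1: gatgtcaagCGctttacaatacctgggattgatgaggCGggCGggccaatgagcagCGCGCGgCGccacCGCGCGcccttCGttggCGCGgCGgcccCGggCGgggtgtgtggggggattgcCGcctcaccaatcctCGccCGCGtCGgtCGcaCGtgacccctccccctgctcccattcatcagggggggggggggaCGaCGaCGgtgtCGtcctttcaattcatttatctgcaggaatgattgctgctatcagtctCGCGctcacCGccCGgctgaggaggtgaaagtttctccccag
Zic4: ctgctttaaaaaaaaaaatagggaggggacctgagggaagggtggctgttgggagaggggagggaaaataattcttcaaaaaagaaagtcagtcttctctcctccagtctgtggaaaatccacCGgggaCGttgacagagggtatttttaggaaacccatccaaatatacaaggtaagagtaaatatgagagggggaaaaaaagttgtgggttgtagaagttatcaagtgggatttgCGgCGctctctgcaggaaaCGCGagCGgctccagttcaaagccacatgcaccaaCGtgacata
The Zic1 window held CCAAT, a common promoter box, at 2 places, and the Zic4 window held none of the 5 motifs searched, which are spelled out with the SOX promoters. From these starts the genes diverge without overlap. The whole RefSeq extent of Zic4, with its other starts, begins at base 91365631. That base lies within Zic1, which starts at base 91365768 and runs to lower coordinates on the minus strand, so the overlap is at the start of Zic1. The strand setting of the counting is not given in the sources used here, so reads of that overlap may have been counted for either gene.

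Zic1, which acts in dorsal neural tube and cerebellar development, had 60.4, 66.4 and 65.8 CPM in diencephalon, against 20.1, 33.01 and 16.1 CPM in cortical grey matter. The diencephalic libraries lay within a narrow range and all above the cortical ones, of which replicate 2 was the highest. This was a log2 difference of 1.47 ± 0.22 (SE), or 2.77-fold higher (edgeR adjusted p = 2.28e-05). Zic4, co-deleted with Zic1 in a human cerebellar malformation, had 14.5, 23.7 and 12.02 CPM in diencephalon, against 1.75, 4.26 and 4.35 CPM in cortical grey matter, and was 4.95-fold higher (edgeR adjusted p = 0.000195). Here the lowest diencephalic library had more than the highest cortical one.

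Zic2, which acts in forebrain midline formation and in the routing of retinal axons, did not pass the test. It had 11.2, 12.7 and 13.1 CPM in diencephalon, against 17.02, 14.9 and 15.5 CPM in cortical grey matter, with no overlap between the regions but an edgeR adjusted p of 0.351 at a log2 difference of -0.37 ± 0.28. Zic5, its chromosomal neighbour, was too low to test, with 9, 1 and 3 counts in diencephalon, against 3, 0 and 0 counts in cortical grey matter. On the TPM scale, Zic1 made up 67.8% of the ZIC sum in diencephalon and 50.7% in cortical grey matter, and Zic2 14.8% and 41.5%. Beside these values, the summed CPM of 13 subcortical neuron markers was 391 to 577 in diencephalon, against 25.3 to 27.3 in cortical grey matter. Pmch, Hcrt, Avp and Chrnb4 were at 0 in cortical grey matter. All 6 markers tested were higher, beside 14.9% of all genes tested. A marker that reached the count filter in diencephalic libraries only could only be called higher. The part of neuronal RNA in the ZIC differences, and in those of Foxb1 and Foxp2, was not tested.

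Foxb1 was higher in diencephalon and not detected in cortical grey matter. Foxb1, an embryonic marker of the mammillary region and thalamus, had 15.4, 7.91 and 12.02 CPM in diencephalon, from 33, 15 and 23 counts, and no count in any cortical library. Against a floor of 3 counts over the cortical group it was at least 23.0-fold higher (edgeR adjusted p = 2.86e-06).

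The FOXP genes, repressors that bind DNA as dimers with each other, were split: Foxp2 was higher, Foxp1 lower, and Foxp4 did not pass. Foxp2, known from human speech and present in thalamic and deep cortical neurons, had 229, 277 and 291 CPM in diencephalon, against 104, 104 and 117 CPM in cortical grey matter, and was 2.45-fold higher (edgeR adjusted p = 1.54e-07). The lowest diencephalic library was far above the highest cortical one. Foxp1, which acts in striatal and cortical neurons, had 160.5, 119.7 and 115 CPM in diencephalon, against 156, 225 and 227 CPM in cortical grey matter. Diencephalon replicate 1 lay above cortical replicate 1, so the regions overlapped. Foxp1 was 1.53-fold lower (edgeR adjusted p = 0.00602), with an adjusted p of 0.0503 without diencephalon replicate 3 and of 0.154 on log2(TPM + 1). Foxp4 had 48.7, 61.7 and 59.6 CPM in diencephalon, against 50.6, 48.98 and 65.8 CPM in cortical grey matter and an edgeR adjusted p of 0.880. Within each library, the TPM ratio of Foxp2 to Foxp1 was 1.49, 2.43 and 2.65 in diencephalon, against 0.706, 0.480 and 0.540 in cortical grey matter, a pair chosen after its values were seen. Of 12 genes listed as FOXP corepressor partners, all tested, none was higher and 4 were lower in diencephalon, or 33.3%, beside 14.8% of all genes lower and 29.6% called either way. Among the 4, Tbr1 had 3.78 ± 1.97 CPM in diencephalon and 77.3 ± 12.4 CPM in cortical grey matter (SD, n = 3 each). Tbr1 is also listed as a cortical excitatory neuron marker, all 11 of which were lower in diencephalon, with a sum of 984 to 1397 CPM in diencephalon, against 5446 to 6430 CPM in cortical grey matter. The part of cortical neurons in the Foxp1 difference was not tested. Chd3, a chromatin remodeller, was 1.44-fold lower, and the nuclear receptor gene Nr2f1 was 1.75-fold lower.

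FOXO genes encode the factors that insulin signalling keeps out of the nucleus. Foxo3 was the member of the 3 families with the highest TPM in every library. It had 348, 354 and 356 CPM in diencephalon, against 590.3, 565 and 566 CPM in cortical grey matter. The libraries of each region lay close together and far from those of the other region. It was 1.63-fold lower in diencephalon (log2 difference -0.70 ± 0.12, edgeR adjusted p = 8.83e-05). Foxo1 had 136, 129 and 133 CPM in diencephalon, against 161, 158 and 141 CPM in cortical grey matter, without overlap but with an edgeR adjusted p of 0.232. Foxo6, a brain-expressed member, averaged 19.6 ± 2.96 CPM in diencephalon and 24.3 ± 4.02 CPM in cortical grey matter (SD, n = 3 each, edgeR adjusted p = 0.364). Foxo4 was at 6.08, 12.7 and 6.79 CPM in diencephalon, against 6.11, 11.7 and 6.21 CPM in cortical grey matter (edgeR adjusted p = 0.905), with overlapping regions. The TPM ratio of Foxo3 to Foxo1 was 5.09, 5.45 and 5.31 in diencephalon, against 7.27, 7.11 and 7.96 in cortical grey matter.

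Of 14 genes of the insulin and PI3K pathway upstream of FOXO, all tested, 3 were higher and 1 lower in diencephalon, or 28.6% called, near the 29.6% of all genes. The insulin receptor Insr averaged 153 ± 2.18 CPM in diencephalon and 108 ± 4.04 CPM in cortical grey matter, its substrate Irs1 439.7 ± 11.01 CPM in diencephalon and 264 ± 19.3 CPM in cortical grey matter, and Irs2 87.2 ± 10.2 CPM in diencephalon and 36.6 ± 9.15 CPM in cortical grey matter (SD, n = 3 each). These 3 were the members that were higher, by 1.41, 1.66 and 2.35 times. The kinase gene Akt2 was 2.45-fold lower, with 101 ± 17.8 CPM in diencephalon and 248 ± 18.9 CPM in cortical grey matter. Of 17 genes listed as FOXO targets, 14 were tested, none was higher and 5 were lower, or 35.7%, beside 14.8% of all genes lower and 29.6% called either way. The median log2 difference was -0.41. The 5 were Pdk4, a brake on pyruvate oxidation (1.90-fold lower), the pseudokinase gene Trib1 (1.68-fold), the catalase gene Cat (1.45-fold), the repressor gene Bcl6 (1.56-fold) and the mitochondrial superoxide dismutase gene Sod2 (1.43-fold). The list holds genes known as FOXO targets in other tissues.

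Among the widely expressed forkhead genes, Foxj3 and Foxk2 were lower and Foxn3 higher in diencephalon. Foxj3, which in muscle acts on Mef2c, had 201, 192 and 195 CPM in diencephalon, against 267, 315 and 362 CPM in cortical grey matter, and was 1.602-fold lower (edgeR adjusted p = 0.000361). No library of either region reached the range of the other. Its paralog Foxj2 had 91.7, 109 and 103 CPM in diencephalon, against 99.9, 91.6 and 114 CPM in cortical grey matter (edgeR adjusted p = 0.978). Foxk2, a regulator of glycolysis genes, had 138, 153 and 161 CPM in diencephalon, against 185, 191 and 219 CPM in cortical grey matter, and was 1.31-fold lower (edgeR adjusted p = 0.0248). This call was lost without diencephalon replicate 1 (adjusted p = 0.0981), diencephalon replicate 2 (0.0666) or cortical replicate 3 (0.0506), and on log2(TPM + 1) (0.355). Its paralog Foxk1 had 105, 107 and 99.3 CPM in diencephalon, against 131, 124 and 119 CPM in cortical grey matter (edgeR adjusted p = 0.133), without overlap. Foxn3, a repressor of cell cycle and metabolic genes, had 84.7, 71.7 and 68.5 CPM in diencephalon, against 50.2, 52.2 and 59.01 CPM in cortical grey matter, and was 1.40-fold higher (edgeR adjusted p = 0.0299). The adjusted p was 0.131 without diencephalon replicate 1, 0.0587 without diencephalon replicate 2, 0.110 without cortical replicate 1, 0.0890 without cortical replicate 2 and 0.0998 with DESeq2. Foxn2 had 53.8, 50.6 and 61.1 CPM in diencephalon, against 44.9, 37.3 and 44.7 CPM in cortical grey matter, without overlap but with an edgeR adjusted p of 0.116.

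Among the forkhead genes of vessels and meninges, only Foxc1 could be tested, and it was lower in diencephalon. Foxc1, which acts in meningeal, mural and endothelial development, had 6.08, 4.22 and 3.66 CPM in diencephalon, against 31.4, 40.99 and 38.5 CPM in cortical grey matter. The lowest cortical library was far above the highest diencephalic one, and Foxc1 was 7.75-fold lower (log2 difference -2.95 ± 0.29, edgeR adjusted p = 8.37e-08). Its relative Foxc2 was below the count filter, with 1, 0 and 0 counts in diencephalon, against 16, 6 and 5 counts in cortical grey matter, a cortex to diencephalon ratio of 27.8 (95% exact counting interval 4.58 to 1137). Of the other vascular forkhead genes, Foxf2, a pericyte gene of the brain, had 2, 4 and 5 counts in diencephalon, against 4, 6 and 2 counts in cortical grey matter, and Foxq1, an endothelial gene, had 3, 3 and 2 counts in diencephalon, against 4, 1 and 4 counts in cortical grey matter. Meningeal and fibroblast markers were also lower: 10 of 11 tested were lower and none higher, and their sum was 860.0 to 1284 CPM in diencephalon, against 4542 to 8238 in cortical grey matter. Without Ptgds, the most abundant of them, the sum was 2.80-fold lower. The summed CPM of 11 mural markers was 123 to 157 in diencephalon, against 219.9 to 326 in cortical grey matter, with 4 of 6 tested lower and 1 higher. The part of these cells in the Foxc1 difference was not tested.

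Foxj1, the regulator of motile cilia in ependymal and choroid plexus cells, had 9.36, 10.02 and 15.2 CPM in diencephalon, against 5.67, 2.13 and 1.24 CPM in cortical grey matter, from 20, 19 and 29 counts in diencephalon and 13, 4 and 2 in cortical grey matter. All diencephalic libraries were above the cortical ones, and Foxj1 was 3.52-fold higher (edgeR adjusted p = 0.00455). Of 19 motile cilia genes linked to FOXJ1 in the files, 9 were tested, of which 3 were higher and none lower, or 33.3%, beside 14.9% of all genes higher and 29.6% called either way. The median log2 difference was 0.25, and the summed CPM was 446 to 475 in diencephalon, against 413 to 528 in cortical grey matter. Without Rfx3, the most abundant of them, the sum was 1.57-fold higher in diencephalon. The 3 higher genes were Rsph4a, a radial spoke gene (2.62-fold higher), Ak7, an adenylate kinase gene of cilia (2.64-fold), and Ccdc40, an axonemal ruler gene (3.17-fold). Most ependymal markers, Ak7 among them, are also on this cilia list. The summed CPM of 11 ependymal markers was 36.9 to 55.7 in diencephalon, against 20.5 to 31.9 in cortical grey matter, where Tmem212 and Dynlrb2 were at 0, and 1 of 3 tested was higher. That of 10 choroid plexus markers was 293 to 400.3 in diencephalon, against 42.9 to 85.7 in cortical grey matter, with 5 of 7 tested higher and 1 lower. The part of these cells in the Foxj1 difference was not tested.

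Foxr2, an X-linked forkhead gene known as an oncogene, was near the limit of detection, with 11, 12 and 15 counts in diencephalon, against 2, 5 and 4 counts in cortical grey matter. Foxr2 was 3.26-fold higher (edgeR adjusted p = 0.0165), and the call was lost without diencephalon replicate 2 (0.0544), diencephalon replicate 3 (0.0927) or cortical replicate 1 (0.118), and with DESeq2 (0.105). Foxm1, the mitotic forkhead gene, had 9, 4 and 2 counts in diencephalon, against 3, 1 and 4 counts in cortical grey matter and was not tested. Of 12 mitosis genes linked to FOXM1 only Mki67 was tested, and it did not pass. Of the 36 members that were not tested, 17 had no count in any library, among them Sox3, Sox14, Foxd3 and the antisense genes Foxd2os and Foxl2os, which the symbol rule also takes, and 19 had some. Foxd1 had 3, 0 and 1 counts in diencephalon, against 2, 5 and 2 counts in cortical grey matter, and Foxn1 2, 3 and 3 counts in diencephalon, against 0, 1 and 1 counts in cortical grey matter.

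**Figure D2:**
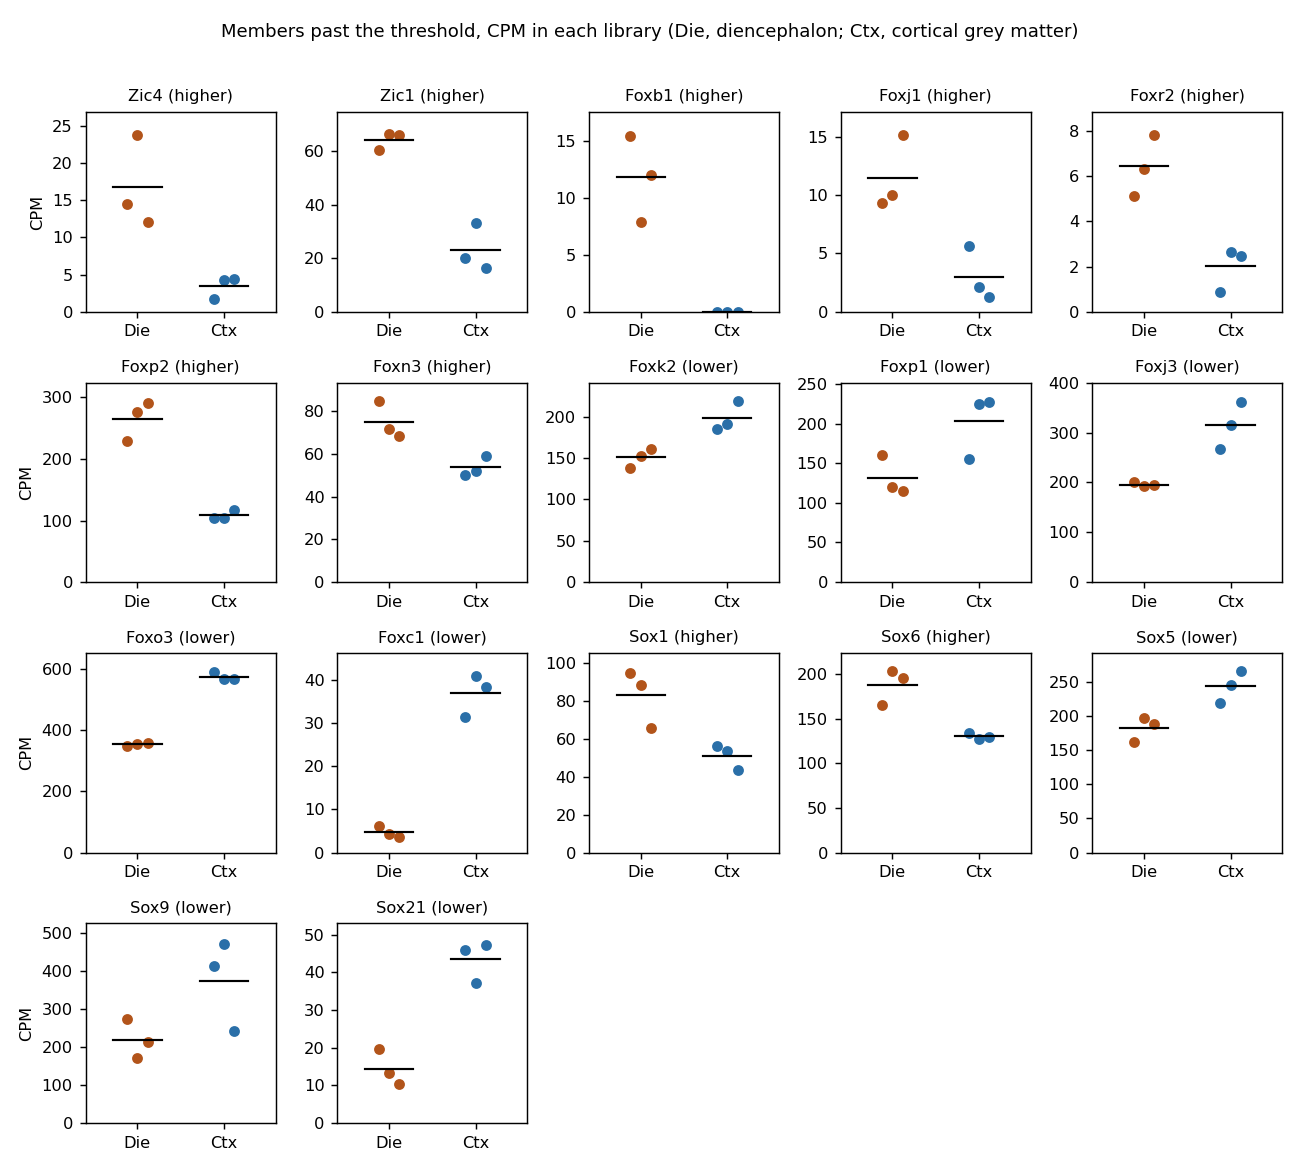
CPM of the 17 members past the threshold in each library, with diencephalon (Die) left of cortical grey matter (Ctx) and a bar at the mean of 3 libraries. Sox9 and Foxp1 are the 2 called members whose regions overlap, and Foxb1 is at 0 in the 3 cortical libraries.

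The SOX genes are ordered by their groups, which share the HMG box and often expression. SOX group B1 keeps neural precursors undifferentiated, and group B2 opposes it. Sox1 and Sox21, the members of B1 and B2 that passed the threshold, did so in opposite directions, so their promoters are shown. The windows are built as above, Sox1 at chr8:12395269-12395568 on the plus strand with 37 CG dinucleotides and Sox21 at chr14:118236981-118237280 on the minus strand with 22, at a GC content of 70.7% and 65.7%.
Sox1: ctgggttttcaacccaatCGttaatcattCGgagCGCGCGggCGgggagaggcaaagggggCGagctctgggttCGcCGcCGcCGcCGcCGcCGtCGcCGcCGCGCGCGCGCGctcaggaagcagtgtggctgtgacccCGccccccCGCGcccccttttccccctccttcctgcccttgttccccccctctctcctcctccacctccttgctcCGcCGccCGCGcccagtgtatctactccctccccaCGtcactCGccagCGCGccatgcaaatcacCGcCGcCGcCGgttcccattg
Sox21: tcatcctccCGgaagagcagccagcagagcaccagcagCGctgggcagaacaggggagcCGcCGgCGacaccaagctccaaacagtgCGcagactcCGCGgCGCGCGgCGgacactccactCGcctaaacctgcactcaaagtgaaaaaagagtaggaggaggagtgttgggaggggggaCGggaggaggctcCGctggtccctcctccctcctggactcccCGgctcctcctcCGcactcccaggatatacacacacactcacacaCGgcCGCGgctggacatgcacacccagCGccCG
Of the 68 members, 45 had a promoter window in RefSeq, among them 13 of the 17 called. Sox9, Foxb1, Foxj1 and Foxp2 were the called members without one. The 55 windows of the members had a median of 21 CG dinucleotides and a GC content of 62.7%, beside 7 and 52.7% over all 32851 windows. Searched on both strands, the forkhead core GTAAACA was in 3.64% of the members' windows (3.65% of all windows), the SOX core ATTGTT in 3.64% (10.7%), the ZIC motif CAGCAGG in 9.09% (10.5%), CCAAT in 47.3% (37.4%) and TATAAA in 9.09% (13.6%). Of the 4 windows printed, Zic1 and Sox1 held CCAAT and no other of these motifs, and matches of different motifs did not overlap.

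Sox1 had 94.97, 88.6 and 65.8 CPM in diencephalon, against 56.3, 53.8 and 43.5 CPM in cortical grey matter. All diencephalic libraries were above the cortical ones, with a fold of 1.62 (log2 difference 0.69 ± 0.18, edgeR adjusted p = 0.00446). Sox2, the pluripotency and neural stem cell factor of the same group, had 25.7, 22.7 and 25.1 CPM in diencephalon, against 34.03, 36.2 and 26.1 CPM in cortical grey matter, where diencephalic libraries lay below the cortical ones, at an edgeR adjusted p of 0.179. The long non-coding RNA Sox2ot, which overlaps Sox2 on the same strand, had 29.9, 31.1 and 21.4 CPM in diencephalon, against 10.9, 16.5 and 13.0 CPM in cortical grey matter (log2 difference 1.03 ± 0.26, edgeR adjusted p = 0.00436). Sox21, the B2 member, had 19.6, 13.2 and 10.5 CPM in diencephalon, against 45.8, 37.3 and 47.2 CPM in cortical grey matter. It was 2.98-fold lower, with no overlap (log2 difference -1.57 ± 0.24, edgeR adjusted p = 3.06e-05). Within a library, the TPM ratio of Sox1 to Sox21 was 4.53, 6.30 and 5.91 in diencephalon, against 1.15, 1.35 and 0.864 in cortical grey matter. That of Sox1 to Sox2 was 2.18, 2.30 and 1.55 in diencephalon, against 0.976, 0.876 and 0.984.

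SOX group C acts in newborn neurons and did not differ past the threshold. Sox11 had 80.9, 66.97 and 84.1 CPM in diencephalon, against 83.8, 78.8 and 55.3 CPM in cortical grey matter (edgeR adjusted p = 0.757), and Sox12 had 80.5, 91.2 and 75.8 CPM in diencephalon, against 81.6, 89.4 and 106 CPM in cortical grey matter (adjusted p = 0.470). Sox4 stayed below 11 CPM in every library (adjusted p = 0.495). The regions overlapped for all 3 genes.

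Group D, whose proteins lack a domain that activates or represses by itself, split. Sox6 had 165, 203 and 195 CPM in diencephalon, against 134, 127 and 129 CPM in cortical grey matter, and was 1.44-fold higher (edgeR adjusted p = 0.00354). Its paralog Sox5 had 162, 197 and 188 CPM in diencephalon, against 219, 245 and 265 CPM in cortical grey matter, and was 1.33-fold lower (edgeR adjusted p = 0.0182). The regions overlapped for neither gene. The Sox5 call was lost without diencephalon replicate 1 (adjusted p = 0.0907) or diencephalon replicate 3 (0.0504), and on log2(TPM + 1) (0.314). The TPM ratio of Sox6 to Sox5 was 0.851, 0.864 and 0.876 in diencephalon, against 0.512, 0.438 and 0.411 in cortical grey matter. Sox13 had 30.9, 25.8 and 26.7 CPM in diencephalon, against 23.1, 17.04 and 16.8 CPM in cortical grey matter, without overlap but with an edgeR adjusted p of 0.0890.

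Group E holds the glial factors. Sox9, which switches neural stem cells to glia and marks adult astrocytes, had 273, 171 and 212 CPM in diencephalon, against 413, 472 and 242 CPM in cortical grey matter. Cortical replicate 3, the library that stood apart, lay within the range of the diencephalic ones. Sox9 was 1.72-fold lower at an edgeR adjusted p of 0.0495, close to the threshold. Without cortical replicate 3 the edgeR adjusted p was 6.04e-06. The call was lost without diencephalon replicate 2 (adjusted p = 0.0896), diencephalon replicate 3 (0.138), cortical replicate 1 (0.143) or cortical replicate 2 (0.0971), with DESeq2 (0.0875), with limma voom (0.0833) and on log2(TPM + 1) (0.149). Per 1000 CPM of summed astrocyte markers, Sox9 was at 12.3, 8.81 and 11.1 CPM in diencephalon, against 11.8, 14.1 and 8.61 CPM in cortical grey matter. Sox8 had 80.9, 50.6 and 70.03 CPM in diencephalon, against 84.6, 88.9 and 52.8 CPM in cortical grey matter (edgeR adjusted p = 0.554). Sox10, the oligodendrocyte lineage factor, had 30.9, 29.5 and 15.7 CPM in diencephalon, against 25.7, 34.1 and 47.2 CPM in cortical grey matter (edgeR adjusted p = 0.197), and its regions overlapped.

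Of 10 astrocyte genes linked to SOX9 and NFI factors, 8 were tested, none was higher and 5 were lower in diencephalon, or 62.5%, beside 14.8% of all genes. Of the 12 astrocyte markers, 1 was higher and 6 were lower, Slc1a3 being on both lists, and the part of astrocyte RNA in these counts was not tested. The NFI genes, which act with SOX9 at the start of gliogenesis, were among them: Nfix averaged 327 ± 77.1 CPM in diencephalon and 1283 ± 26.4 CPM in cortical grey matter, Nfib 202 ± 7.40 CPM in diencephalon and 462 ± 28.9 CPM in cortical grey matter and Nfia 546 ± 43.05 CPM in diencephalon and 693 ± 25.1 CPM in cortical grey matter (SD, n = 3 each). Hapln1, a link protein of the extracellular matrix, was 4.77-fold lower, and the fifth was Slc1a3. Of 12 oligodendrocyte genes linked to SOX10, 9 were tested, 6 were higher and 1 lower, or 77.8% called, beside 29.6% of all genes. Myrf, the regulator of myelin genes, averaged 123 ± 14.03 CPM in diencephalon and 36.1 ± 10.2 CPM in cortical grey matter, and the myelin gene Mbp 732 ± 104 CPM in diencephalon and 332 ± 40.7 CPM in cortical grey matter (SD, n = 3 each). Mog, also a myelin gene, was 3.17-fold higher, and the progenitor gene Cspg4 was 2.09-fold lower. The 6 higher genes are also listed as oligodendrocyte markers, and Sox10 itself did not pass. Of 8 POU partners of SOX and GLI partners of ZIC proteins, 7 were tested, 1 was higher and 3 lower, or 57.1% called, beside 29.6% of all genes. Gli1, a target and effector of Hedgehog signalling, averaged 13.4 ± 4.29 CPM in diencephalon and 3.32 ± 1.29 CPM in cortical grey matter and was the 1 that was higher. Gli3, its repressor counterpart, averaged 111 ± 21.8 CPM in diencephalon and 218 ± 36.9 CPM in cortical grey matter and was 1.95-fold lower, as were Pou6f1 (2.18-fold) and Pou3f3 (1.94-fold).

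**Figure D3:**
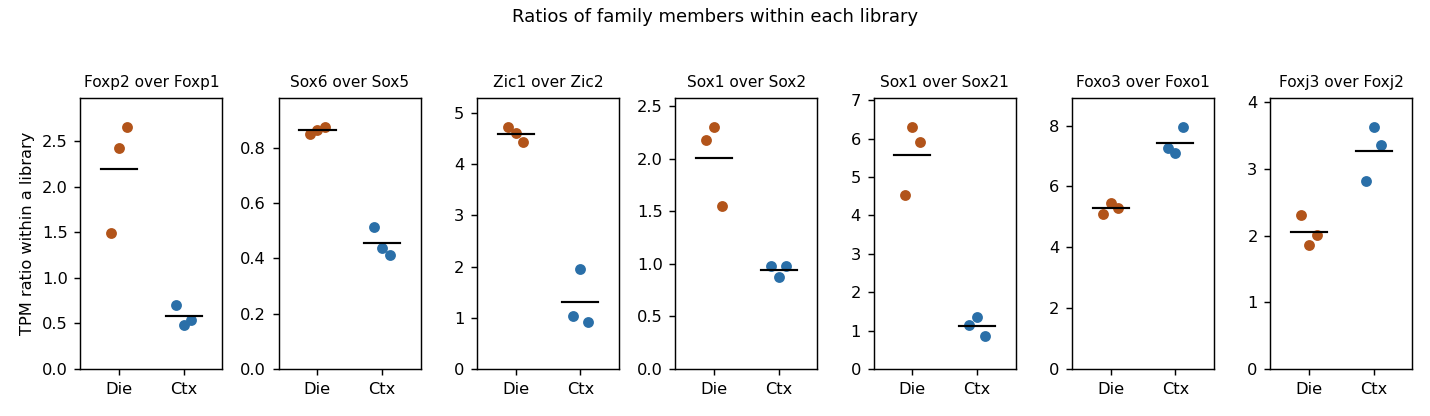
Ratio of TPM values between pairs of family members within each library, with diencephalon (Die) left of cortical grey matter (Ctx) and a bar at the mean of 3 libraries. The pairs were chosen after their values were seen; Sox6 over Sox5 is 0.851 to 0.876 in diencephalon and 0.411 to 0.512 in cortical grey matter.

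On the per-length TPM scale, Foxo3 led in both regions, with 475 ± 12.5 TPM in diencephalon and 670.4 ± 26.6 TPM in cortical grey matter (SD, n = 3 each). Sox9 was next, with 201 ± 44.3 TPM in diencephalon and 299 ± 92.03 TPM in cortical grey matter, and then Foxj3, with 156 ± 1.94 TPM in diencephalon and 217 ± 32.8 TPM in cortical grey matter. The next in diencephalon was Foxp2 (154 ± 20.4 TPM), which did not differ from Foxj3 beyond its spread, and neither did Sox9 and Foxj3 in cortical grey matter, where the Sox9 libraries ran from 195 to 369 TPM. Foxp2 was 4th in diencephalon and 12th in cortical grey matter, at 54.7 TPM there. The summed forkhead level was 1457, 1509.8 and 1526 TPM in diencephalon, against 1588, 1562 and 1699 TPM in cortical grey matter, and that of SOX genes 842, 742 and 748 TPM, against 881, 910.4 and 727 TPM. Foxo3 gave 31.7% of the forkhead sum in diencephalon and 41.5% in cortical grey matter, and Sox9 25.6% and 35.1% of the SOX sum.

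**Figure D4:**
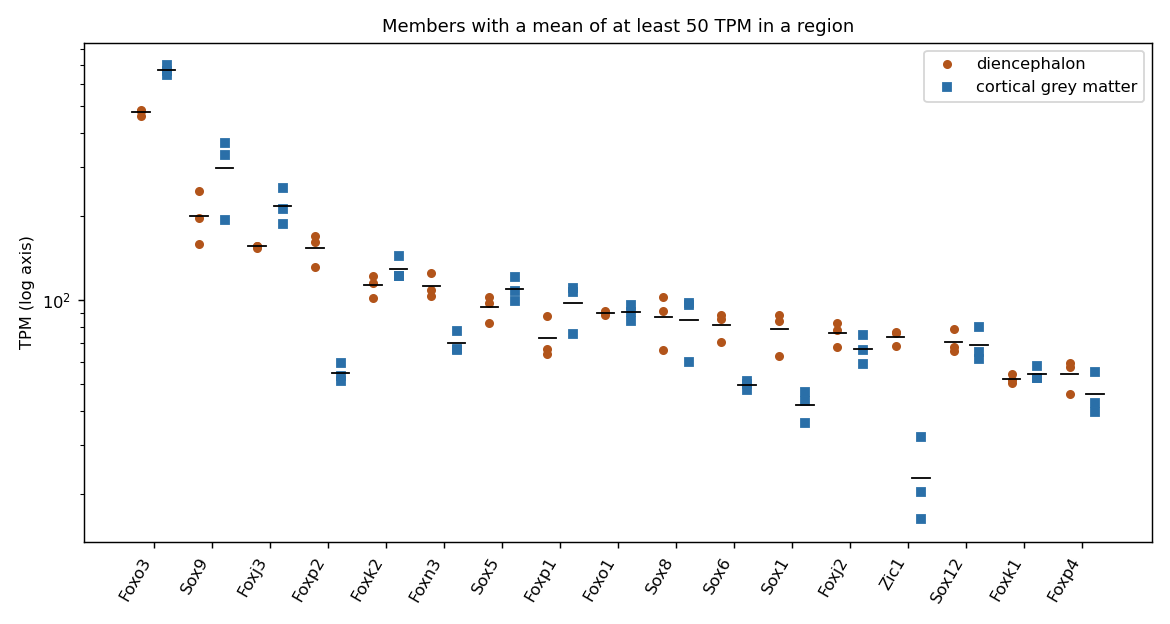
TPM, a per-length level on a log axis, of members with a mean of at least 50 TPM in a region, in each library, with diencephalon (circles) left of cortical grey matter (squares) and a bar at the mean of 3 libraries. Foxo3 lies highest, at 461 to 484 TPM in diencephalon and 646 to 698.5 TPM in cortical grey matter.

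Because the astrocyte marker sum itself was lower in diencephalon, each called member was also divided by that sum in its own library, a description added after the data were seen. The sum being lower there, the division raised the diencephalic values of every gene relative to the cortical ones, so that 58.1% of all genes tested lay higher in diencephalon without overlap and 4.75% lower. The 9 members already called higher could only move further apart, and their separation on this scale says nothing more. Of the 8 members called lower, Foxc1 and Sox21 lay lower without overlap, and Foxj3, Foxk2, Foxo3, Foxp1, Sox5 and Sox9 overlapped. Of the 15 that did not pass, Sox2, Sox11, Sox13, Foxj2, Foxk1, Foxn2 and Foxo1 lay higher without overlap on this scale. Foxo3 was at 15.6, 18.2 and 18.6 CPM per 1000 CPM of astrocyte markers in diencephalon, against 16.8, 16.9 and 20.2 in cortical grey matter. Zic1 was at 2.71, 3.42 and 3.44 in diencephalon, against 0.572, 0.987 and 0.575 in cortical grey matter. Without Slc1a2, the most abundant astrocyte marker, 2 of the 8 lay lower without overlap too. Among the members that did not pass, Sox2, Foxj2 and Foxk1 then overlapped, while Sox11, Sox13, Foxn2 and Foxo1 still lay higher.

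Other cell types were present in both regions' libraries at unequal levels. The summed CPM of 10 oligodendrocyte markers was 1841 to 2443 in diencephalon, against 827 to 1065 in cortical grey matter, with 8 of 9 tested markers higher. The sum of 8 oligodendrocyte progenitor markers was 177 to 187 CPM in diencephalon, against 237 to 282 CPM in cortical grey matter. Of 12 endothelial markers 4 were tested, with 1 lower. The summed CPM of the 12 was 45.3 to 54.3 in diencephalon, against 59.8 to 88.9 in cortical grey matter. Without Cdh5, the most abundant of them, the diencephalon to cortex ratio of the sum was 1.00. SOX group F, a set of endothelial factors, was too low to test. Sox7 had 3, 0 and 4 counts in diencephalon, against 9, 6 and 4 counts in cortical grey matter. The sum of 10 inhibitory neuron markers was 239.9 to 273 CPM in diencephalon, against 174 to 232 CPM in cortical grey matter, and that of 10 microglia markers 299 to 535 CPM, against 429 to 1016 CPM. Without Gad2, the most abundant inhibitory neuron marker, the inhibitory sum was 1.48-fold lower in diencephalon. The part of these cell types in the members' differences was not tested.

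**Figure D5:**
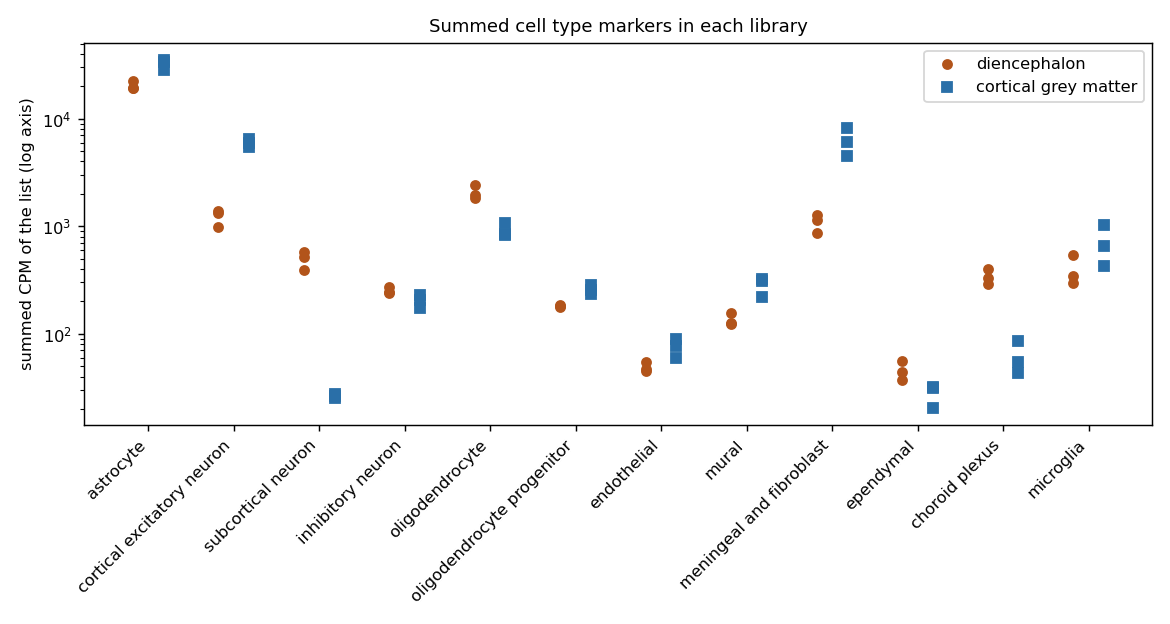
Summed CPM of each cell type marker list on a log axis, in each library, with diencephalon (circles) left of cortical grey matter (squares). Subcortical neuron and choroid plexus sums lie higher in diencephalon, and cortical excitatory neuron and meningeal sums lie lower.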

How the data were processed

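Per the labels' protocols, RNA of pulled-down ribosomes was column-purified, amplified as cDNA (Ovation) and sequenced on an Ion Proton. RSEM and the build mm9 are named per the submitters' processing notes; the RSEM version, the aligner and whether strand was used are not given in the sources. The deposited expected counts are RSEM estimates, not whole for 3.64% to 3.99% of values in a library; those of Sox9, Sox10, Foxp1, Foxp2 and Foxp3 were affected. Deposited TPM values are scaled to gene length and library by the authors, as are the deposited FPKM values, which were not used. RefSeq has Sox2 overlapping Sox2ot, Sox5 overlapping Sox5os3, Zic1 overlapping Zic4, and Foxj2 overlapping Mir7231.

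Expected counts were rounded (library totals moved by less than 7 counts) and tested by edgeR 4.0.16 (quasi-likelihood, R 4.3.3) after filterByExpr with a minimum count of 10 and TMM scaling, with region as the only term. Of 23955 genes 10568 were tested, with Benjamini-Hochberg adjustment at 0.05. CPM use TMM library sizes; ± is the SD of 3 libraries for levels and the SE for log2 differences. The biological coefficient of variation was 13.6%. A group without a count was set to 3 counts for a bound; ratios of low counts have exact 95% intervals. Intervals and floors cover counting error only.

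Of the 70 members, 2 are not reported here, nor are some genes of the lists; counts over a list include every tested gene of it. Members and lists were chosen with earlier results of these data known. Every tested member may be named, untested ones with at least 10 counts, and of each list up to 4 genes past the threshold with the smallest adjusted p; Sod2, Nfia, Cspg4 and Sox2ot were named after their values were seen, as were single genes without a count and the most abundant marker of a list. Alternatives were RLE factors, no filter, DESeq2 1.42.0, voom (limma 3.58.1), a minimum count of 30, limma on log2(TPM + 1) or on log2(TPM + 0.1) where the mean TPM reached 1, a replicate block, removal of the trend on gene length, and leaving out each library. The scripts were tested on simulated data.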

Additional observations from a re-analysis of the deposited data

How the results depend on the processing

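Of the 17 called members, 11 were called in each of the 15 alternatives that tested them; the other 6 were Sox5, Sox9, Foxk2, Foxn3, Foxp1 and Foxr2, and none of the 17 changed sign. Across alternatives, the edgeR, DESeq2 and limma adjusted p ran from 0.00461 to 0.314 for Sox5, from 5.54e-07 to 0.158 for Sox9, from 0.0075 to 0.355 for Foxk2, from 0.00902 to 0.131 for Foxn3, from 0.000117 to 0.160 for Foxp1 and from 0.0165 to 0.118 for Foxr2. The 5 higher forkhead genes were 2 at a minimum count of 30, which tests fewer genes, 3 with DESeq2, and 3 to 5 when a library was left out. The 2 higher ZIC genes were 1 at that minimum count. The 3 lower SOX genes were 1 on log2(TPM + 1) and 1 on log2(TPM + 0.1), where Sox5 and Sox9 did not pass, and 1 to 3 when a library was left out. The count of higher forkhead genes was 3 when diencephalon replicate 2 was left out and likewise for cortical grey matter replicate 1. Foxn3 and Foxr2 did not pass in either case. The count of lower SOX genes was 1 when diencephalon replicate 3 was left out, where Sox5 and Sox9 did not pass. The cause was not tested. Among the 15 members that did not pass, Sox13 passed on both TPM scales (adjusted p = 0.0407 and 0.0421) and Foxk1 with the length trend removed (0.0404). Without a count filter, Foxc2 was lower (adjusted p = 0.000295) and Foxa1, with 9 counts in diencephalon and 0 in cortical grey matter, higher (0.0422).

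Signs turned for 6 members that did not pass. On log2(TPM + 1) and log2(TPM + 0.1), log2 differences were 0.042 and 0.043 for Sox12, 0.046 and 0.047 for Sox8, and 0.19 and 0.20 for Foxj2. With the length trend removed, Sox11 was at -0.029 and Foxp4 at -0.041, and at a minimum count of 30 Foxj2 was at 0.0032. With a library left out, Sox11 ran from -0.077 to 0.19, Foxj2 from -0.083 to 0.069, Foxo4 from -0.32 to 0.45 and Foxp4 from -0.038 to 0.18.

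With the replicate number as a block, 3037 genes were called in all, beside 3133, and the counts of members by family and direction were unchanged. The deviations of same-numbered libraries had correlations of 0.059, -0.099 and 0.0037. No diencephalic library correlated best with the cortical library of its own number. With so few libraries and such small correlations, this cannot show whether the libraries are paired. The numbers were not used as pairs because no label says that they mark the same mice. Of the 68 members, 36 were below the count filter, 17 of them without a count; at these totals low expression and none cannot be told apart.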

Other observations

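The other members below the count filter carried few reads. Of the forkhead genes of endoderm, Foxa1 had 2, 2 and 5 counts in diencephalon and none in cortical grey matter, and Foxa2 had 1 count in diencephalon replicate 3. Foxb2, the paralog of Foxb1, had 0, 3 and 2 counts in diencephalon, against none in cortical grey matter. These genes were named after their values were seen, and no fold is given for them.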
